A study of Mus musculus with 6 samples.

Results

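The 8 genes Mgmt, Alkbh2, Alkbh3, Mpg, Msh3, Msh6, Pms2 and Exo1 act on the base damage that an alkylating agent leaves in DNA, by reversing it, cutting it out or sensing it as a mispair. They were chosen by symbol for that role, and all 8 were found among the 24346 gene symbols of each table. RNA sequencing covered the parental CT26.mMR1 cells, the mouse colorectal tumor line CT26 overexpressing retrovirally transduced mouse MR1, and M8, a mutant of these cells that overexpresses MR1 as well. M8 was made with the chemical mutagen ENU, cloned by limiting dilution and picked for its surface MR1 and its effect on a MAIT cell reporter, so the mutant line is a single clone. The sample titles of both lines carry the label cl9, whose meaning is not given in the sources used here. Whether the parental cells are a clone as well is therefore not known. Each line had 3 biological replicates. How long after the mutagen the RNA was taken is not given in the sources used here.

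ENU transfers ethyl groups to oxygen and ring nitrogen atoms of the bases. Mgmt encodes the methyltransferase that takes an alkyl group off the oxygen of guanine onto its own cysteine and is used up by doing so, while Alkbh2 and Alkbh3 are dioxygenases that oxidize alkyl groups away from ring nitrogens. Mpg is the glycosylase that excises alkylated purines and opens base excision repair. Damage that stays until replication mispairs and is sensed by mismatch repair, in which the Msh6 subunit of the sensing dimer binds base mispairs and the Msh3 subunit larger loops, Pms2 carries the activity that nicks the new strand, and the exonuclease Exo1 removes it. In cells without the methyltransferase, mismatch repair is known to turn methyl lesions on the oxygen of guanine into strand breaks and a checkpoint signal. Whether ethyl lesions were handled in this way in these cells was not tested.

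The values were deposited as FPKM, which correct for library depth and transcript length, so that levels can be compared between genes. They summed to between 593635 and 630264 per sample. In genes with a single transcript, most low FPKM values were close to whole multiples of what a single read is worth, and this step put the depth at 23760000 to 26940000 reads in the parental replicates and at 19250000 to 21960000 reads in M8, least distinctly in M8 replicate 2. On the log2(FPKM + 1) scale Pearson's r over genes, which are no independent replicates, was at least 0.9978 within a line and at most 0.9973 between the lines. The label colon was checked against marker genes. Of 10 intestinal epithelial markers, 8 stayed below 1 FPKM in all 6 samples, and Epcam, Cdh1, Krt19 and Cdx2 were listed at 0. Krt18 and Krt20 were the exceptions, and Krt20 fell from 17.4 to 11.9 FPKM (limma adjusted p = 0.00438). The 6 mesenchymal markers summed to between 3149 and 3622 FPKM in the parental line and between 3287 and 3386 FPKM in M8. Most of this sum was Vim, and Fn1, the fibronectin gene, fell from 622 ± 22.5 to 488 ± 17.3 FPKM (SD, n = 3 each, limma adjusted p = 0.000917). All 6 leukocyte and all 3 endothelial markers stayed below 1 FPKM in every sample, although the leukocyte sum was 0.416 to 1.05 FPKM in parental cells and 0.0632 to 0.312 FPKM in M8. The part of these marker differences in the results was not tested.

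Promoter sequence is shown for 3 genes on which the results turn, Mgmt, which was listed at 0, and the 2 genes that fell in M8, Alkbh3 and Msh6. The bases come from RefSeq windows on GRCm38.p6 (mm10), of which 300 bases per start site were searched, and only the stretch upstream of every annotated start of the gene is printed, 5′ to 3′. Capitals mark GGGCGG, the core of the GC box, on either strand.
Mgmt (chr7:136894336-136894462, plus strand): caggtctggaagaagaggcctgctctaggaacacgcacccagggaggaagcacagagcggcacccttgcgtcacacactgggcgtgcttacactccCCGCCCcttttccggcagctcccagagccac
Alkbh3 (chr2:94010825-94010980, minus strand): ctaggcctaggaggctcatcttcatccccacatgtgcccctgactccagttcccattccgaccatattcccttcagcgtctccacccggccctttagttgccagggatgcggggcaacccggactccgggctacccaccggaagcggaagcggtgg
Msh6 (chr17:87974800-87975049, plus strand): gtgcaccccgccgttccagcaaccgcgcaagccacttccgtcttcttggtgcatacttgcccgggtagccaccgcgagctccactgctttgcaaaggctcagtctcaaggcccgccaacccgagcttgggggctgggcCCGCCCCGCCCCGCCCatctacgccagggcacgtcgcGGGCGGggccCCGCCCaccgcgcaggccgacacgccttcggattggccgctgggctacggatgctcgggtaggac
The 300-base window of Msh6 held 5 matches to GGGCGG and 37 CpG dinucleotides. The first of 2 windows of Mgmt held 4 matches and 20 CpG, whereas that of Alkbh3 held 0 matches and 18 CpG. Over all 32817 promoter windows 35.6% held at least 1 match and 5.48% at least 4, overlapping matches counted separately, and the median was 7 CpG. The window of Msh3 held 4 matches, that of Mpg 3, that of Pms2 2 and that of Alkbh2 1. No match to TATAAA on either strand was found in a window of any of the 7 genes with one, against 13.6% of all windows that hold it. TTTCCCGC, a site form of the E2F factors, was found in the window of Msh6 and in 1.07% of all windows, and another such form, TTTGGCGC, in the window of Msh3 and in 0.515% of all windows, both searched on either strand. A match is a description of the letters and not of binding. Exo1 is not in that sequence table.

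Expression of the 8 genes spanned a wide range. In both lines Alkbh3 was the highest, followed by Msh6, Mpg and Pms2, while Exo1 and Msh3 were near 4 FPKM, Alkbh2 was near 1.5 FPKM and Mgmt was listed at 0. Exo1 and Msh3 overlapped in level in both lines and changed places in the order of the means. Mpg and Pms2 did not overlap in either line. Differences between the lines were tested with limma on log2(FPKM + 1) in the 10597 genes whose mean reached 1 FPKM, adjusted over all of them, with a threshold of 0.1 for the adjusted p. A log2 fold change on this scale is M8 minus parental and understates the change of low genes. Of the 8 genes 7 could be tested, each with a mean above 1 FPKM in both lines, and 2 were lower in M8 and 0 were higher. Among all genes tested 16.5% were lower and 21.2% were higher in M8, 1745 and 2250 genes. That balance moved to 2209 lower and 1658 higher genes with TPM and to 2769 and 1470 with upper-quartile scaling. None of the 7 genes was higher at an unadjusted p below 0.05 in limma either, and 2 were lower. The median log2 fold change was -0.048 over the 7 genes and 0.0069 over all genes tested.

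**Figure D1:**
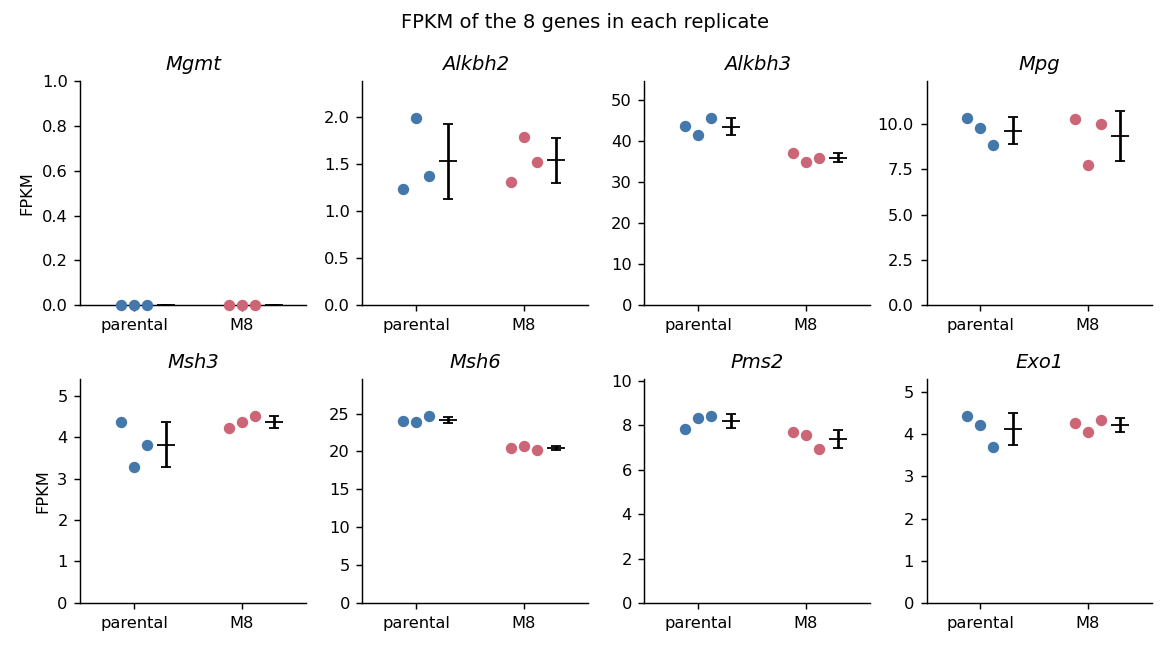
FPKM (vertical axes, starting at 0, each gene on its own scale) of the 8 genes in the 3 parental and 3 M8 replicates. Points are replicates, and bars give the mean and SD. The M8 points of Alkbh3, Msh6 and Pms2 lie below all their parental points, and Mgmt lies at 0 in all 6 samples.

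Mgmt was listed at 0 FPKM in all 3 parental and all 3 M8 replicates. At the estimated depths, and for its GENCODE coding transcript of 2894 bases, 3 reads would be worth 0.041 to 0.058 FPKM, which is the level that a count of 0 still allows and covers counting error only. An exact 0 can also be a failed estimate in such files. Of 38 genes used by nearly every cell that were checked for this, 0 were listed at 0, the lowest value being 14.4 FPKM for Tbp. Since these genes are all well expressed, the check cannot tell whether the 0 of Mgmt itself is a failed estimate. Mgmt shares its state with 8254 of the 24346 symbols, which were at 0 in all samples. The gene spans 235653 bases of chromosome 7 (136894614 to 137130266, plus strand). With both lines at 0, no fold change can be given.

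Alkbh3, the dioxygenase with a preference for single-stranded DNA and RNA, had the highest level of the 8 genes and the largest fitted difference among them. Its FPKM was 43.6, 41.5 and 45.6 in parental replicates 1 to 3 and 37.2, 34.9 and 35.8 in M8 replicates 1 to 3. Every M8 value lay below every parental value. The mean fell from 43.6 ± 2.03 (SD, n = 3) to 36.0 ± 1.15 (SD, n = 3) FPKM, a ratio of 0.826. The log2 fold change was -0.27 (standard error, SE, 0.048, 95% confidence interval -0.38 to -0.16, limma adjusted p = 0.00385). This change was larger than that of 84.8% of the genes tested, without regard to sign, or as large. Alkbh3 lies on the minus strand of chromosome 2 (93980550 to 94010807), where GENCODE places the protein-coding model Gm27027 on the same strand and the antisense gene Alkbh3os1 on the other. How the authors assigned reads shared with them is not given in the sources used here, so its level is less certain.

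Alkbh2, the dioxygenase that works on double-stranded DNA, was expressed at a far lower level, and its replicates scattered widely. It had 1.24, 1.99 and 1.37 FPKM in the parental line and 1.31, 1.79 and 1.52 FPKM in M8. The ranges of the lines overlapped almost completely. Means were 1.53 ± 0.399 and 1.54 ± 0.237 FPKM (SD, n = 3 each), and the log2 fold change was 0.012 (SE 0.13, 95% confidence interval -0.28 to 0.31, limma adjusted p = 0.957). If all reads came from its longest coding transcript, these values rest on about 25.2 to 41.3 reads per sample, for which counting alone gives a coefficient of variation of 18%, against 26.0% observed in parental cells and 15.4% in M8. The FPKM of Alkbh3 was 29.7 ± 7.74 times that of Alkbh2 in parental cells and 23.8 ± 4.39 times in M8 (SD, n = 3 each, exact two-sided permutation test p = 0.3). Alkbh2 lies on chromosome 5 (114123926 to 114128218, minus strand), and its end overlaps that of Usp30 on the opposite strand, a gene at 14.5 ± 0.385 and 14.2 ± 0.342 FPKM (SD, n = 3 each).

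Mpg, the alkyladenine glycosylase, did not differ beyond the spread of its replicates. It stood at 10.3, 9.77 and 8.83 FPKM in the parental line and at 10.3, 7.77 and 9.99 FPKM in M8. M8 replicate 2 was the lowest of the 6 samples and the remaining M8 values lay within the parental range. The log2 fold change was -0.048 (SE 0.098, 95% confidence interval -0.27 to 0.17, limma adjusted p = 0.746), and it was 0.067 without M8 replicate 2. Mpg lies on chromosome 11 (32226505 to 32232700, plus strand) within the span of Nprl3 on the other strand, which had 11.8 ± 0.501 FPKM in the parental line and 12.9 ± 0.574 FPKM in M8 (SD, n = 3 each).

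Msh6, the subunit that gives the sensing dimer its hold on base mispairs, fell in M8. Its 3 parental values were 24.0, 23.9 and 24.7 FPKM and its 3 M8 values 20.5, 20.8 and 20.2 FPKM. The lines were far apart against this spread, a coefficient of variation of 1.77% in parental cells and 1.48% in M8. Means were 24.2 ± 0.429 and 20.5 ± 0.303 FPKM (SD, n = 3 each), a ratio of 0.847. The log2 fold change was -0.23 (SE 0.043, 95% confidence interval -0.33 to -0.13, limma adjusted p = 0.00473). Msh6 is on chromosome 17 (87975062 to 87990892, plus strand), and its end overlaps that of Fbxo11 on the opposite strand. Fbxo11, an F-box protein gene, was named after its values had been seen. It had 22.7 ± 1.23 and 20.2 ± 0.510 FPKM (SD, n = 3 each), with a log2 fold change of -0.16 (SE 0.052, limma adjusted p = 0.0450), a call lost without parental replicate 2, M8 replicate 1 or M8 replicate 2 (highest limma adjusted p = 0.145).

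Msh3, the subunit for larger loops, moved the other way in its mean without passing the threshold. It had 4.37, 3.28 and 3.80 FPKM in the parental line and 4.21, 4.36 and 4.51 FPKM in M8. Parental replicate 1 lay within the M8 range and the other two parental values below it. The log2 fold change was 0.16 (SE 0.091, 95% confidence interval -0.044 to 0.36, limma adjusted p = 0.216). Without parental replicate 1 it was 0.24 and past the threshold (limma adjusted p = 0.0674), and it also passed with quantile normalization (limma adjusted p = 0.0881). Msh3 spans 143132 bases of chromosome 13 (92211872 to 92355003, minus strand).

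Since Msh6 and Msh3 take the same place in the sensing dimer, their ratio was also taken in each sample. Msh6 had 5.49, 7.29 and 6.50 times the FPKM of Msh3 in parental cells and 4.88, 4.77 and 4.47 times in M8. All 3 M8 ratios were below all parental ratios, with means of 6.42 ± 0.899 and 4.71 ± 0.207 (SD, n = 3 each, exact two-sided permutation test p = 0.1, the smallest p that 3 samples against 3 allow). The parental ratios varied with Msh3, which spanned 3.28 to 4.37 FPKM there. In all 2 such ratios were computed, this one and that of Alkbh3 to Alkbh2.

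Pms2, the subunit that carries the nicking activity, had lower values in every M8 replicate but did not pass the threshold. It stood at 7.83, 8.33 and 8.42 FPKM in the parental line and at 7.70, 7.55 and 6.93 FPKM in M8. The highest M8 value came close to the lowest parental one. Means were 8.19 ± 0.315 and 7.39 ± 0.409 FPKM (SD, n = 3 each), with a log2 fold change of -0.13 (SE 0.062, 95% confidence interval -0.27 to 0.0069, limma adjusted p = 0.140). With TPM and with upper-quartile scaling Pms2 was called lower, with limma adjusted p-values of 0.0778 and 0.0437. Pms2 lies on chromosome 5 (143909964 to 143933968, plus strand), overlapped at its end by the protein-coding models Rsph10b and Gm42421 on the same strand and by an antisense gene, so its level is less certain.

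Exo1, the exonuclease that removes the nicked strand, did not differ beyond the spread of its replicates. Its values were 4.43, 4.23 and 3.71 FPKM in the parental line and 4.28, 4.05 and 4.35 FPKM in M8. All M8 values lay within the parental range. The log2 fold change was 0.030 (SE 0.078, 95% confidence interval -0.14 to 0.21, limma adjusted p = 0.799). Exo1 lies on chromosome 1 (175880581 to 175913489, plus strand).

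**Figure D2:**
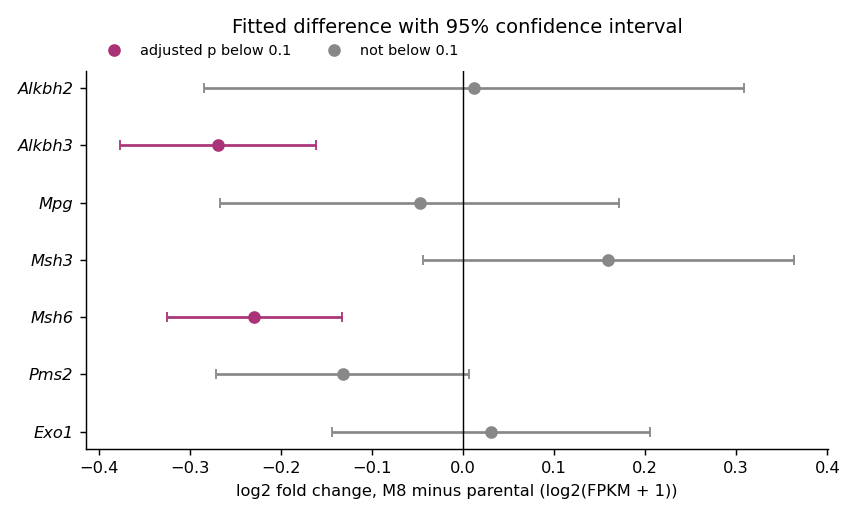
Log2 fold change, M8 minus parental, on the log2(FPKM + 1) scale (horizontal axis) with its 95% confidence interval from limma for the 7 tested genes. Alkbh3 and Msh6, at -0.27 and -0.23, have intervals wholly below 0, and the interval of Pms2 reaches 0.0069.

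Counted by separation rather than by the fit, 3 of the 7 tested genes (42.9%), Alkbh3, Msh6 and Pms2, had M8 values all on one side of the parental ones. The same was true of 45.2% of all genes tested, so the share among these genes was near the background. Permuting the 6 sample labels exactly, two-sided, gave for mean FPKM p = 0.1 in these 3 genes, p = 0.3 for Msh3, p = 0.8 for Mpg and Exo1 and p = 1 for Alkbh2. In bulk RNA a lower level in every cell and a loss from part of the cells cannot be told apart.

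**Figure D3:**
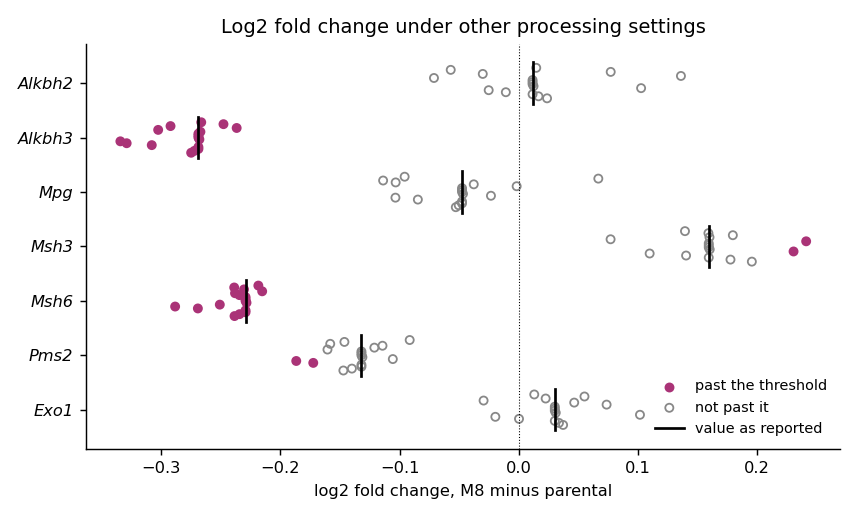
Log2 fold change, M8 minus parental (horizontal axis), of the 7 tested genes as reported (black lines) and under up to 17 other processing settings (points, filled where past the threshold). The points of Alkbh3 and Msh6 are all filled and stay between -0.33 and -0.22, those of Msh3 and Pms2 are filled in 2 settings each, and those of Alkbh2, Mpg and Exo1 fall on both sides of 0.

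The other genes of these pathways were read from 9 lists with 78 genes in all, of which 75 could be tested. Of these, 11 were lower in M8 (14.7%) and 8 were higher (10.7%), against 16.5% and 21.2% of all genes tested, and their median log2 fold change was -0.017. The call of 11 of the 19 genes held under all 17 alternatives, and the other 8 lost it in at least 1.

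Of 4 further homologs of the mismatch repair subunits, 2 were tested, with 1 lower and 0 higher in limma, also at an unadjusted p under 0.05. Mlh3 was lower, a MutL homolog best known from meiosis, which went from 8.77 ± 0.260 to 7.70 ± 0.539 FPKM (SD, n = 3 each, log2 fold change -0.17, limma adjusted p = 0.0743). Its call was lost without parental replicate 1 or 2 or without M8 replicate 1 or 3, where the highest limma adjusted p was 0.207, and also without the filter and with quantile normalization. Pms1, a further MutL homolog, had 3.38 ± 0.322 and 2.91 ± 0.380 FPKM (SD, n = 3 each, limma adjusted p = 0.228). The meiotic genes Msh4 and Msh5 were below 1 FPKM in all samples.

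Among 15 genes of strand excision and resynthesis, 2 were higher, 1 was lower and 12 passed in neither direction, with a median of 0.030. The count of lower genes was 4 with upper-quartile scaling and 5 with quantile normalization. Pold4, the small subunit of polymerase delta, fell from 39.4 ± 3.83 to 28.4 ± 0.236 FPKM (SD, n = 3 each, log2 fold change -0.46, limma adjusted p = 0.00157). Hmgb1, a chromatin protein that aids excision, rose from 195 ± 2.16 to 237 ± 4.22 FPKM (SD, n = 3 each, log2 fold change 0.28, limma adjusted p = 0.000993). Rfc5, a subunit of the loader of the sliding clamp, had a log2 fold change of 0.21 (limma adjusted p = 0.0139).

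The Ascc proteins, with which Alkbh3 works through the helicase Ascc3, split. Ascc3 rose from 14.9 ± 0.892 to 18.6 ± 0.964 FPKM (SD, n = 3 each, log2 fold change 0.31, limma adjusted p = 0.00559). Ascc2 fell from 55.3 ± 3.97 to 47.4 ± 1.33 FPKM (SD, n = 3 each, log2 fold change -0.22, limma adjusted p = 0.0176), while Ascc1 did not pass, although 2 of the 3 were lower without M8 replicate 3. Of the 7 other AlkB homologs, which include the RNA demethylases Alkbh5 and Fto, limma called 0 higher and 0 lower, against 1 and 1 at an unadjusted p under 0.05, and their median was -0.042. Without parental replicate 1, or with quantile normalization, 1 was higher, and 1 was lower without parental replicate 3, M8 replicate 2 or M8 replicate 3, with TPM or upper-quartile scaling, with a pseudocount of 0.1 and without the trend.

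Downstream of Mpg in base excision repair, 3 of 10 genes were higher and 1 was lower, with a median of 0.060. The count of higher genes was 1 without M8 replicate 1 or 2 and 2 without any other single replicate. Apex1, the endonuclease that cuts the abasic site, rose from 14.9 ± 2.17 to 19.2 ± 0.588 FPKM (SD, n = 3 each, log2 fold change 0.36, limma adjusted p = 0.0152). Polb, the polymerase that fills the gap, fell from 27.6 ± 1.54 to 23.5 ± 1.88 FPKM (SD, n = 3 each, log2 fold change -0.23, limma adjusted p = 0.0294), although not without M8 replicate 2 (limma adjusted p = 0.101). Apex2, a relative of Apex1, passed with a log2 fold change of 0.20 (limma adjusted p = 0.0924), a call lost without parental replicate 2 or 3 or M8 replicate 1 or 2 (highest limma adjusted p = 0.252), without the filter and with TPM or upper-quartile scaling. The third, Parp1, a sensor of nicks, had a log2 fold change of 0.15 (limma adjusted p = 0.0563), lost without parental replicate 1 or any single M8 replicate (highest limma adjusted p = 0.143) and with upper-quartile (0.085, limma adjusted p = 0.203) or quantile scaling (0.083, limma adjusted p = 0.232). Of 9 tested glycosylases other than Mpg, 0 were higher and 2 were lower in limma, against 0 and 3 at an unadjusted p under 0.05, and 2 were higher without parental replicate 3. The 2 lower genes were Mbd4 (-0.24) and Neil3 (-0.21), with limma adjusted p-values of 0.0845 and 0.0554. Mbd4 was lost without parental replicate 1 or 2 or M8 replicate 2 or 3, and Neil3 without parental replicate 1 or 2 or M8 replicate 1 or 2, with highest limma adjusted p-values of 0.218 and 0.177. Both were lost without the filter as well, and Mbd4 with quantile normalization (-0.16, limma adjusted p = 0.252).

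Of 13 genes of nucleotide excision repair, which removes bulky adducts, 3 were lower and 2 were higher, with a median of 0.067, and without parental replicate 3 the count of higher genes was 4. Ddb2 (-0.41), Ercc5 (-0.38) and Xpc (-0.24) fell, with limma adjusted p-values of 0.0181, 0.00483 and 0.0333. Ddb2 and Xpc sense the damage and Ercc5 cuts beside it. The call of Xpc was lost without M8 replicate 2 (limma adjusted p = 0.103). Ddb1, which binds Ddb2, and Rad23b, which binds Xpc, were higher by 0.24 and 0.20 and were picked out after their values had been seen. Of the 6 translesion genes, Polk was lower (10.6 ± 0.343 to 8.66 ± 0.253 FPKM, SD, n = 3 each, log2 fold change -0.26, limma adjusted p = 0.00695) and the remaining 5 passed in neither direction, although a second was lower without parental replicate 1 and with upper-quartile scaling. In the ATR and ATM checkpoint list, 9 of 10 genes passed in neither direction, and Rad1 was lower (log2 fold change -0.16, limma adjusted p = 0.0936). That call was lost without parental replicate 2 or 3 and without any single M8 replicate (highest limma adjusted p = 0.241), and also without the filter, with quantile normalization and without the trend.

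**Figure D4:**
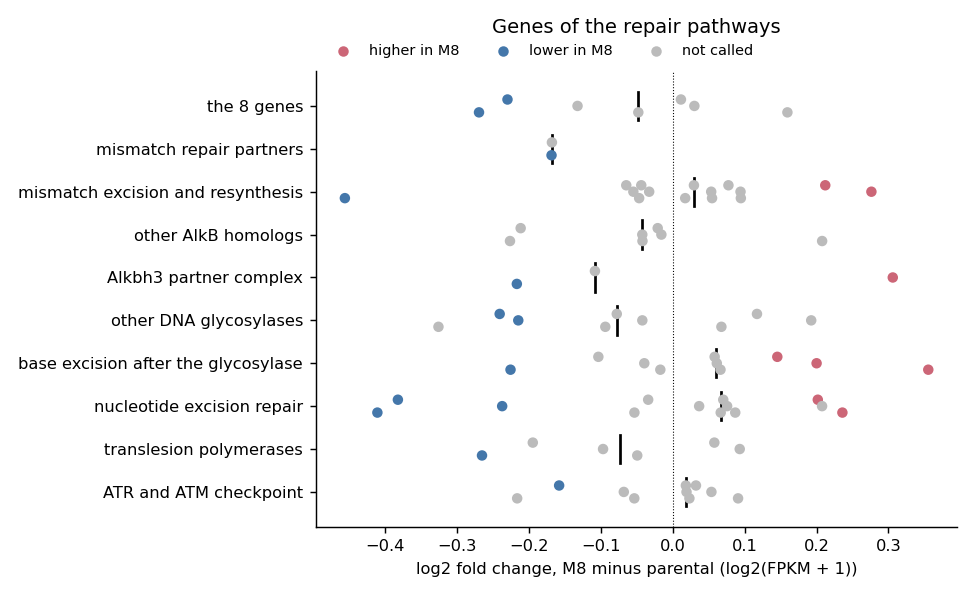
Log2 fold change, M8 minus parental, on the log2(FPKM + 1) scale (horizontal axis) of each tested gene (points) in the 8 genes and the 9 pathway lists, with the list medians as black bars. List medians lie between -0.17 and 0.067, and called genes stand on both sides of 0 in the lists of resynthesis, Ascc proteins, base excision and nucleotide excision.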

How the data were processed

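RNA from 3 parental and 3 M8 replicates was made into stranded mRNA libraries and read as single reads by the authors. They mapped the reads to mm10 with TopHat, and the submitters' processing notes list TopHat2 2.1.1, Bowtie2 2.2.8, SAMtools 0.1.18 and Cuffdiff 2.2.1. The deposited FPKM values were used as they stand, and the annotation and any filter behind them are not given in the sources used here.

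FPKM are not counts, so limma 3.58.1 in R 4.3.3 (lmFit, eBayes with a mean-variance trend) was fitted to log2(FPKM + 1) for the genes whose mean reached 1 FPKM, with the line as the only term and Benjamini-Hochberg adjustment. Calls needed an adjusted p below 0.1, with no fold criterion. The fit was tested on simulated data with known changes. P-values measure the spread between these replicates. Groups came from the sample titles. Same-numbered replicates did not deviate together (r from -0.11 to 0.10), so they were not paired in the reported fit.

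The 8 genes and the gene lists were chosen with earlier results of these data known. Named are the 8 genes, other homologs in mismatch repair and up to 3 called genes per list with the largest change, and, by values seen, Fbxo11, Parp1, Ddb1 and Rad23b. Some genes of these pathways are not reported here. The alternatives were other pseudocounts (0.1, 0.5), filters (none, mean of at least 5), scalings (TPM, upper quartile, quantile, median), no trend, an adjusted p below 0.05, a replicate block and each replicate left out. Depth was estimated in Python 3.11.15 from genes with a single transcript, as the number of reads at which their low values come nearest to whole reads, for a fragment length of 200 bases. Within 0.1 of a whole read were 73.1% to 77.2% of these values. Positions and overlaps came from GENCODE M21 on GRCm38, which is mm10, and promoter windows, 250 bases before to 50 after a start, from RefSeq on GRCm38.p6.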

Additional observations from a re-analysis of the deposited data

How the results depend on the processing

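Alkbh3 and Msh6 kept their direction and their call in all 17 alternatives, with log2 fold changes from -0.33 to -0.24 and from -0.29 to -0.22 and limma adjusted p-values of at most 0.020 and 0.0221. Pms2 passed with TPM (-0.17) and upper-quartile scaling (-0.19). Msh3 passed with quantile normalization (0.23), which made 1 of the 7 tested genes higher, and without parental replicate 1, as reported. With each replicate left out in turn, Msh3 ranged from 0.077 to 0.24, and the count of the 7 genes that were higher ranged from 0 to 1. The sign of Alkbh2 turned with TPM (-0.011) and upper-quartile scaling (-0.025), and that of Exo1 with upper-quartile scaling (-0.020). Leaving out each replicate gave -0.071 to 0.14 for Alkbh2, -0.029 to 0.074 for Exo1 and -0.11 to 0.067 for Mpg, so their signs rest on single libraries. Upper-quartile scaling gave 1470 higher and 2769 lower genes overall and 18 lower genes in the pathway lists, against 7 without the filter, 7 at an adjusted p below 0.05 and 7 to 12 with each replicate left out, the lowest without M8 replicate 2. Leaving out M8 replicate 1 gave the lowest count of lower genes, 1157, and the highest over the replicates was 1672. The cause of these shifts was not tested, and no scaling moved the median of all genes by over 0.1. The replicate block gave 2171 higher and 1688 lower genes and the same 2 calls among the 8 genes, and it ended the call of Rad1. Of the 7 tested genes Alkbh2 had the fewest estimated reads, about 25.2 to 41.3 per sample if all came from its longest coding transcript. The part of depth in its scatter was not tested.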
